A study of Mus musculus with 8 samples.

Results

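MBA-15 cells taken out of co-culture were compared with DA3 cells grown without the other line, on 2 arrays against 2. These are 4 of the 8 arrays of a mouse study of both lines. They were taken by title as the 2 least mixed groups, a choice made with earlier results of these data known. All 19938 genes whose probe set carries a single symbol were compared. MBA-15 is an established stromal line that the labels call pre-osteoblastic, and DA3 is an established line from a mammary adenocarcinoma; the labels name no engineered gene and no added agent for either. Both lines were grown in the same serum-containing DMEM. For co-culture, DA3 cells were seeded on a layer of MBA-15 cells that had attached overnight, and the mixed layer was later trypsinised and split with magnetic particles bearing an antibody to EpCAM, an adhesion molecule of epithelial cells. The MBA-15 co-culture arrays hold the fraction that the magnet did not retain. The DA3 alone arrays are labelled as cells cultured separately at matching confluence, but their descriptions call them a positive fraction and contain the word mix, as do the descriptions of the arrays labelled MBA-15 alone, and the sources used here do not say what it means. The growth protocol names 24 or 48 h of culture, and the description of every array names 24. The MBA-15 cells had met DA3 cells and the DA3 cells had not, by their labels, so a difference between the lines and a difference between culture conditions cannot be told apart in these 4 arrays.

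Epithelial cells are joined into sheets by E-cadherin, claudins and desmosomes, carry keratin filaments and have an apical and a basal side. Mesenchymal cells, such as bone marrow stroma and the pre-osteoblasts that arise from it, lie singly in a matrix of fibrillar collagens that they make themselves, and carry vimentin filaments. ZEB, SNAI and TWIST factors repress epithelial genes, while GRHL, OVOL, ELF and ESRP proteins maintain them. Carcinoma and stroma also exchange signals, since growth factors made by either are often read by receptors of the other.

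All values are log2 expression, so that a difference of 1 stands for a doubling of the signal, and a level is read within a gene and not between genes. The medians of the 8 arrays lay between 4.479 and 4.642. The lowest of them, 4.479, is used below as a floor, since the values come with no detection call. Where 1 group lies under the floor, the difference understates what a detectable signal would give. Differences are MBA-15 co-culture minus DA3 alone with the standard error from limma, fitted to all 8 arrays, and a gene was called at a Benjamini-Hochberg adjusted p under 0.05 over all genes. The labels give all 8 arrays the same culture date and do not state whether a group's 2 arrays stem from separate cultures; the p-values thus reflect only how these arrays vary, possibly for technical reasons, and with 2 arrays a group their number limits the precision. Bulk RNA does not tell fewer cells of a type from less RNA per cell.

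Of the 19938 genes, 1213 (6.08%) were higher in MBA-15 co-culture and 1290 (6.47%) were higher in DA3 alone, 2503 (12.6%) in all. Counts of list members given below are to be read beside these shares. The median difference of all genes was 0.004, and 72% of the genes lay under 0.5 apart. Among called genes the median difference was 1.54 for those higher in MBA-15 co-culture and -1.38 for those higher in DA3 alone, and 437 and 346 of them were over 2 apart. At the far ends, 52 genes were over 4 higher in MBA-15 co-culture and 30 were over 4 higher in DA3 alone. A total of 1095 genes were at or above the floor only in MBA-15 co-culture and 760 only in DA3 alone, against 9542 in both and 8541 in neither. The scaling bears on the balance of the calls: 48.5% of them were higher in MBA-15 co-culture as deposited, and 38.3% after each array was centred on its median, which shifted the median difference of all genes to -0.108. Without DA3 alone replicate 1 the counts fell to 544 and 451, without DA3 alone replicate 2 to 560 and 508, and without MBA-15 co-culture replicate 2 to 1019 and 685. Of 404 called genes chosen for naming, 239 stayed past the threshold whichever single array was left out.

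**Figure D1:**
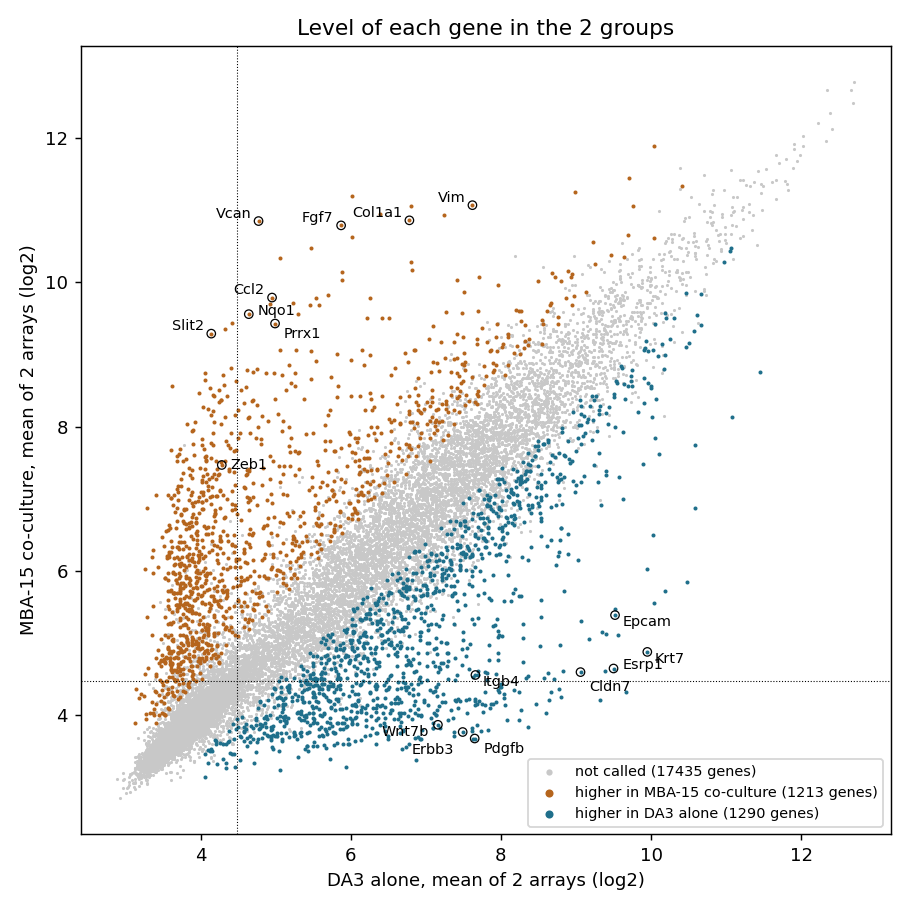
Mean log2 level of each of 19938 genes in DA3 alone (horizontal axis) and MBA-15 co-culture (vertical axis), 2 arrays each; colours mark the 1213 genes called higher in MBA-15 co-culture and the 1290 called higher in DA3 alone, and dotted lines mark the floor of 4.479. Vcan, Fgf7 and Slit2 lie at the upper left and Krt7, Esrp1 and Epcam at the lower right, while most genes lie along the diagonal.

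Markers of epithelium and stroma separated the groups, which the choice of groups and lists had in part set beforehand. The groups were taken as the least mixed, and the MBA-15 cells were those that the EpCAM antibody did not retain. The marker lists were written with earlier results of these data known. Of 39 epithelial markers 32 were higher in DA3 alone and 0 in MBA-15 co-culture (median difference -3.55), and of 35 stromal markers 27 were higher in MBA-15 co-culture, with 0 in DA3 alone (median 3.42), against 6.47% and 6.08% of all genes. The mean level over the epithelial list was 4.69 and 4.58 on the MBA-15 co-culture arrays and 7.73 and 7.62 on the DA3 alone arrays, and over the stromal list it was 8.16 and 7.84 against 5.32 and 5.45. Epcam, the molecule used for the separation, read 5.58 and 5.19 in MBA-15 co-culture, with 9.57 and 9.46 in DA3 alone, a difference of -4.13 ± 0.27 (adjusted p = 0.00033). Epcam stayed above the floor in the fraction that was not retained, while 20 of the 39 epithelial markers were below it there. Vim, the vimentin gene, read 11.33 and 10.81 against 7.68 and 7.57 (3.45 ± 0.23). For both genes the arrays of the groups lay far apart. Such separation alone is common with 2 arrays a group, since the arrays of 53.8% of all genes did not overlap. Some stromal genes kept a level in DA3 alone, with Col1a1 at 6.65 and 6.91 and Bgn at 6.19 and 7.41, and 12 of the 35 stromal markers were below the floor there. Col1a1 lost the call with DA3 alone replicate 1 left out.

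Few genes of the osteoblast lineage were above the floor. Of 24 osteoblast genes measured 5 were higher in MBA-15 co-culture, 0 were higher in DA3 alone, and 14 were below the floor in both groups. Ank, a membrane protein that exports pyrophosphate and restrains mineral deposition, was the largest at 2.74 ± 0.24 (9.27 and 8.73 against 6.22 and 6.29). Bmp4, a bone morphogenetic protein, differed by 2.34, and Omd, the small proteoglycan osteomodulin, by 2.16. Kazald1, an IGF-binding protein relative of bone, followed at 2.14. The collagen gene Col11a1 was called at 0.90 (adjusted p = 0.0488). Alpl, the alkaline phosphatase of mineralising cells, read 5.05 and 4.28 in MBA-15 co-culture against 3.91 and 3.65 (adjusted p = 0.204). Sp7, which encodes osterix, a transcription factor that commits cells to the osteoblast fate, read 4.58 and 4.11 against 4.06 and 4.02 (adjusted p = 0.441). Vdr, the vitamin D receptor, read 5.17 and 6.38 against 4.30 and 4.53 (adjusted p = 0.14). Ibsp, the bone sialoprotein gene of mature osteoblasts, was below the floor on all 4 arrays with a difference of -0.01. Col11a1 did not keep the call with any array of either group, or an array of the other groups left out.

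Of 27 luminal and milk genes 5 (18.5%) were higher in DA3 alone and 2 (7.41%) in MBA-15 co-culture, with a median of -0.04. The 5 were Erbb3 (-3.72), the secreted iron-binding proteins Ltf (-3.18) and Lcn2 (-2.95), Erbb2 (-1.83), and Btn1a1 (-1.31), which encodes butyrophilin of the milk fat globule. The casein gene Csn2 and the whey gene Wap were below the floor in both groups. Xdh, xanthine dehydrogenase, which also serves in milk fat secretion, was higher in MBA-15 co-culture (9.04 and 8.17 against 4.98 and 5.42). Esr1, the estrogen receptor, was low and also higher in MBA-15 co-culture (5.01 and 5.06 against 3.94 and 3.71), and Pgr, the progesterone receptor, was below the floor with a difference of 0.00. Of 19 myoepithelial and basal genes 4 were higher in DA3 alone, led by P-cadherin (Cdh3, -3.26) and integrin beta 4 (Itgb4, -3.10), while Acta2 and Snai2 of that list were higher in MBA-15 co-culture. Lcn2 fell short of the threshold with either DA3 alone array or MBA-15 co-culture replicate 1 left out. Erbb2 lost the call with either DA3 alone array or MBA-15 co-culture replicate 2 left out. Btn1a1 did not keep the call with any array of either group left out. Only 2 of the called luminal and milk genes had the same sign in the other 4 arrays of the study. Averaged over culture conditions, Ltf, Lcn2, Erbb2 and Btn1a1 lost the call. Snai2 fell short of the threshold with either DA3 alone array left out.

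Markers of other cell types were mostly under the floor. Of 24 leukocyte markers 20 were below it in both groups and 2 were called, Cd53 (2.85) and Cd14 (1.15), both higher in MBA-15 co-culture; the mean level of the list was 3.94 and 4.10 there and 3.93 and 3.87 in DA3 alone. The endothelial (5 of 18, 27.8%), adipocyte (3 of 13, 23.1%) and neural (3 of 15) lists were called above the 12.6% of all genes, each in both directions, while muscle (1 of 14, 7.14%) and chondrocyte (2 of 14, 14.3%) genes were called below or near it. The median differences of these 5 lists lay between -0.05 and 0.08. Among them were the TGF-beta co-receptor endoglin (Eng, 2.26), the intermediate filament gene nestin (Nes, 3.59) and the fat cell regulator Pparg (1.85), all higher in MBA-15 co-culture. Mcam (-1.97) and the microtubule protein gene Map2 (-2.69) were higher in DA3 alone. Cd53 lost the call with either DA3 alone array left out. Cd14 and Map2 did not keep the call with either DA3 alone array or MBA-15 co-culture replicate 2 left out.

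Krt7, a keratin of simple epithelia, read 4.88 on both MBA-15 co-culture arrays and 10.11 and 9.78 in DA3 alone (-5.07 ± 0.16, 33.5-fold, adjusted p = 0.000161), and Krt18 read 5.79 and 5.91 against 10.46 and 10.49 (-4.63 ± 0.19). Krt8 and Krt19, which pair with them in simple epithelia, differed by -3.91 and -3.72. Of 25 keratins these 4 were higher in DA3 alone, Krt13 was higher in MBA-15 co-culture at a low level (1.10), and 15 were below the floor in both groups. Krt5, of basal cells, missed the threshold at -0.94 (adjusted p = 0.0519). Mpzl2, an adhesion protein of epithelia, had the largest difference of all genes higher in DA3 alone, with 4.34 and 4.31 against 9.68 and 9.67 (-5.35 ± 0.20). Of 65 cadherins, protocadherins and junction proteins 20 were higher in DA3 alone and 10 in MBA-15 co-culture. Cdh1, E-cadherin, read 4.70 and 4.49 against 8.52 and 8.75. Claudins 7, 6, 3 and 4, which seal tight junctions, were -4.46, -4.44, -4.41 and -4.27 apart in Cldn7, Cldn6, Cldn3 and Cldn4, and the desmosome gene Jup -3.82. The opposite set held mesenchymal cadherins: Cdh11, the cadherin of osteoblasts and fibroblasts (3.80), Cdh2, N-cadherin (3.42), and the protocadherins Pcdh18 (3.76) and Pcdh7 (3.47). Claudins are a family of related sequence, and a probe set may read more than its own member. Krt13 fell short of the threshold with any array of either group left out.

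Outside the marker lists, genes of the apical side had the largest share of members higher in DA3 alone (51.2%, against 6.47% of all genes). Of 43 genes of apical polarity, brush border and trafficking 22 were higher in DA3 alone and 1 in MBA-15 co-culture, with a median of -1.24. Rab25, a small GTPase of apical recycling, read 5.59 and 5.85 against 10.23 and 10.14 (-4.47). Ap1m2, the adaptor subunit that sorts cargo in epithelia, differed by -3.92. The polarity genes Prkcz and Llgl2 differed by -2.88 and -2.76. The single member in the other direction was Sytl2 (2.38), a RAB27 effector. Among integrins, Itgb4, the hemidesmosome subunit (-3.10), Itgb6 (-2.40), Itga7 (-2.38) and Itga3 (-1.88) were higher in DA3 alone. Itga5, the fibronectin receptor subunit, was higher in MBA-15 co-culture at 3.18 (8.76 and 8.55 against 5.45 and 5.50). Of 26 integrins 5 (19.2%, against 6.47% of all genes) were higher in DA3 alone and 2 (7.69%, near the 6.08% of all genes) in MBA-15 co-culture. Prkcz lost the call with DA3 alone replicate 2 left out. Itga3 did not keep the call with DA3 alone replicate 1 left out.

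Many promoters of the epithelial markers hold a sequence motif that the choice of arrays did not use. The E-box CAGGTG, or CACCTG on the opposite strand, is the motif that ZEB and SNAI repressors are known to bind. It was searched on both strands in the 300 bases around the RefSeq start (250 before, 50 after), in the assembly GRCm38.p6, for the 15563 genes found in that table. The bases before the start are shown for the separation antigen, for a keratin, a claudin, a trafficking gene and a transcription factor high in DA3, and for Vcan, the gene with the largest difference in the other direction, whose promoter holds no match. Capitals mark each match, and all are written 5′ to 3′ on the strand of the gene.
Epcam, chr17:87635729-87635978, plus strand: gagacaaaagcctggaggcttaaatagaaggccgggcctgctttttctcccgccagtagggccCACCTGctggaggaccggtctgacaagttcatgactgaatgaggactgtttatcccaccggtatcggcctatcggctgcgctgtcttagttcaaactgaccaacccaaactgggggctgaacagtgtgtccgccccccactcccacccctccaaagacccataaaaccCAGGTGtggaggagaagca
Krt7, chr15:101412153-101412402, plus strand: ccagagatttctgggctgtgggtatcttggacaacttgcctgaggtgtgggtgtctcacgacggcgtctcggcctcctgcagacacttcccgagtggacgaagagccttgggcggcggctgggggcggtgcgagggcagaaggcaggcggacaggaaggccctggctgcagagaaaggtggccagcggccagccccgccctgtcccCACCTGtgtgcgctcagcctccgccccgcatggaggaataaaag
Cldn4, chr5:134946935-134947184, minus strand: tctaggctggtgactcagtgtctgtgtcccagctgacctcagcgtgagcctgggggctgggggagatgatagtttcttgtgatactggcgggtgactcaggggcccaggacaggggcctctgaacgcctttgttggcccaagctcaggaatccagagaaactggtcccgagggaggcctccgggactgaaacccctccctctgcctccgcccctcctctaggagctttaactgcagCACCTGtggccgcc
Rab25, chr3:88548280-88548529, minus strand: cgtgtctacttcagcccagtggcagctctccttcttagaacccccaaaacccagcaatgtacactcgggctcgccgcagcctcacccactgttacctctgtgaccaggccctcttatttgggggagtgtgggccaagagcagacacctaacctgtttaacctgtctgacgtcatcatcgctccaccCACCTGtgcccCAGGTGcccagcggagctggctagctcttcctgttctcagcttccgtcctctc
Elf3, chr1:135258473-135258722, minus strand: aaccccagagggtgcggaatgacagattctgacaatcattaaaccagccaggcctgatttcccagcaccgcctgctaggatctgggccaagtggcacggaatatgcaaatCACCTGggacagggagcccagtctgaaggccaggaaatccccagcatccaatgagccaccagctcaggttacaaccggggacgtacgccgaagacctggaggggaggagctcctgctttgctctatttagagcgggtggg
Vcan, chr13:89742513-89742762, minus strand: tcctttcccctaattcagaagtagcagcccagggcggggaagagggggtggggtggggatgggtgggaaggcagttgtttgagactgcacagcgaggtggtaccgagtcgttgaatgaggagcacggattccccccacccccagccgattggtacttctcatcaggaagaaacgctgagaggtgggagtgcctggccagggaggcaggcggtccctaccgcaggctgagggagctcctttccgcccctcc

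Epcam and Rab25 held 2 matches each in these stretches and Krt7, Cldn4 and Elf3 held 1. Of the 26 epithelial markers with a listed promoter, 21 (80.8%) held the motif, against 2 of 20 stromal markers (10.0%, Sparc and Timp2) and 19.2% of all 15563 promoters. The share was lower in other lists: 9 of 15 keratins, 13 of 30 epithelial transcription factors (43.3%) and 9 of 21 luminal and milk genes (42.9%). It was in 13 of 31 apical genes (41.9%), 12 of 41 cadherins and junction proteins (29.3%) and 5 of 18 integrins (27.8%). The keratin, apical and junction lists share members with the epithelial markers, so their shares are not separate evidence. Of the epithelial transcription factors with the motif only Elf3 was called, and of the luminal and milk genes only Ltf. Over every called gene the motif was in 294 of 1006 promoters (29.2%; exact binomial 95% interval 26.4 to 32.1) of genes higher in DA3 alone. It was in 120 of 922 (13.0%; 10.9 to 15.4) of genes higher in MBA-15 co-culture, and in 18.9% of promoters of genes not called. The intervals cover counting error only, and genes are not independent of each other. Promoters of genes higher in DA3 alone also had a higher GC content (median 61.7% against 58.7% and 57.0%). Within GC bands the order was the same: at 40 to 50% GC 23.4% of the DA3 set and 8.59% of the MBA-15 set held the motif, at 50 to 60% 26.0% and 12.8%, at 60 to 70% 32.0% and 13.7%, and at 70 to 80% 33.3% and 17.4%. Other motifs were searched in the same way, on both strands. The E-box CAGCTG was in 15.0% of the DA3 set and 16.3% of the MBA-15 set, CACGTG in 9.24% and 9.65%, the AP-1 motif TGACTCA in 4.87% and 4.45%, the TEAD motif GGAATG in 13.6% and 13.0%, and the grainyhead motif AACCGGTT in 0.0994% and 0.542%, which are 1 and 5 promoters. With N for the fourth base, AACNGGTT was in 1.99% and 1.95%. With the bases before the start alone the shares of CAGGTG were 25.5% and 11.2%, and with any listed promoter of a gene 34.0% and 17.5%. A match describes letters and is not a bound site.

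**Figure D2:**
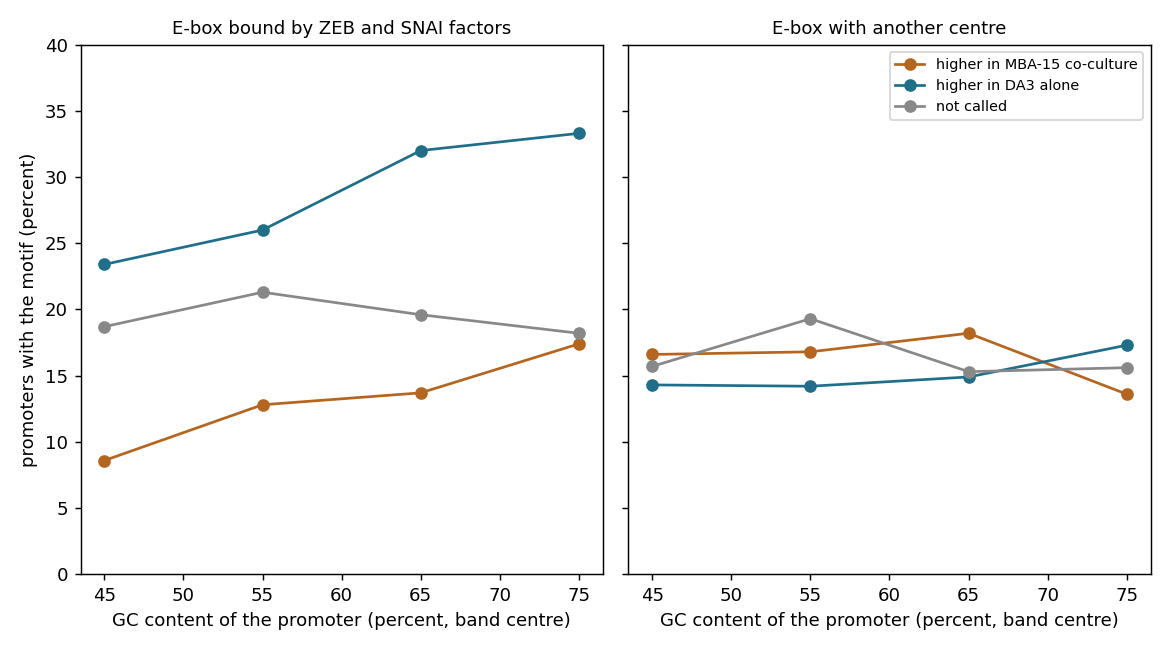
Share of promoters (percent) that hold the E-box CAGGTG (left) or the E-box CAGCTG (right) on either strand, in bands of GC content drawn at their centres, for genes higher in MBA-15 co-culture, higher in DA3 alone and not called. On the left the DA3 set lies above the genes not called and the MBA-15 set below them in every band, while on the right the lines cross.

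Zeb1 read 7.46 and 7.48 in MBA-15 co-culture, with 4.21 and 4.35 in DA3 alone (3.19 ± 0.12, adjusted p = 0.000161), and Zeb2 read 6.96 and 7.33 against 3.68 and 3.70 (3.45 ± 0.15). Both were under the floor in DA3 alone and well above it in MBA-15 co-culture. Of 82 mesenchymal and osteoblast transcription factors 23 (28.0%) were higher in MBA-15 co-culture, with 1 in DA3 alone, and 35 were below the floor in both groups. Prrx1, a homeodomain factor of limb and skeletal mesenchyme, read 9.98 and 8.89 against 4.87 and 5.11 (4.44 ± 0.40). Twist2, a repressor of osteoblast maturation, differed by 3.40, and Etv1, an ETS factor, by 2.83. Snai2 was also among the 23 (2.59). Twist1, often named with Twist2, read 6.66 and 6.18 against 6.95 and 6.25 and was not called (adjusted p = 0.844). The exception in the other direction was Scx, the tendon factor scleraxis, at -0.83. Snai2 fell short of the threshold with either DA3 alone array left out. Scx lost the call with any array of either group, or an array of the other groups left out.

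Of 47 epithelial transcription factors 8 (17.0%) were higher in DA3 alone and 4 (8.51%) in MBA-15 co-culture, against 6.47% and 6.08% of all genes. Elf3, an epithelial ETS factor, read 3.83 and 3.74 against 7.74 and 7.49 (-3.83 ± 0.22), and Grhl2, the grainyhead factor that sustains Cdh1 and claudin genes, read 4.21 and 4.38 against 7.27 and 7.19 (-2.94 ± 0.38). Ehf (-2.12), Id4 (-1.72), Ovol2 (-1.17), Grhl1 (-1.13) and Hoxb13 (-1.13) were among the others. Of the 4 in the other direction Esr1 and the T-box gene Tbx3 are named for mammary epithelium, while Vgll3 (2.98), a TEAD cofactor, and Creb3l1 (2.73), a regulator of secretory and collagen genes, are not restricted to epithelium. Id4 did not keep the call with either DA3 alone array, or an array of the other groups left out. Ovol2, Grhl1 and Hoxb13 fell short of the threshold with DA3 alone replicate 1 left out. Tbx3 lost the call with either DA3 alone array or MBA-15 co-culture replicate 1, or an array of the other groups left out. Creb3l1 did not keep the call with either DA3 alone array left out.

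Esrp1, which imposes epithelial exon choice on genes such as Fgfr2 and Cd44, read 4.75 and 4.55 in MBA-15 co-culture against 9.51 and 9.49 (-4.85 ± 0.41). Its relative Esrp2 differed by -1.98 and Rbm47, an RNA-binding partner in epithelia, by -2.80. Rbfox2 (1.10), Ptbp2 (2.02), Khdrbs3 (1.93) and Rbpms2 (2.56), a regulator of smooth muscle splicing, were higher in MBA-15 co-culture. These 8 calls among 28 genes also include Celf4 (-1.63). Cd44 fell short of the threshold with any array of either group left out. Esrp2 lost the call with DA3 alone replicate 1 left out. Rbm47 did not keep the call with either DA3 alone array or MBA-15 co-culture replicate 2 left out. Ptbp2 fell short of the threshold with DA3 alone replicate 2 left out.

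Hox genes, which record the body position from which cells came, were called in both directions. Of 37 measured 7 (18.9%, against 6.08% of all genes) were higher in MBA-15 co-culture, Hoxc6 (1.78), Hoxc5 (1.42), Hoxa9 (1.23), Hoxd8 (1.00), Hoxd9 (0.75), Hoxc13 (0.67) and Hoxa7 (0.57). The 3 higher in DA3 alone (8.11%, near the 6.47% of all genes) were Hoxb9 (-2.19), Hoxa2 (-1.56) and Hoxb13 (-1.13). Hoxc6 read 6.00 and 5.66 against 4.18 and 3.91, and Hoxb9 read 4.66 and 4.78 against 6.64 and 7.18. In the first the DA3 arrays were under the floor, and in the second both groups were above it. All 10 called Hox genes had the same sign in the other 4 arrays of the study. Of 44 nuclear receptors 7 were higher in MBA-15 co-culture, led by Rora (1.95) and Pparg (1.85), which read 5.86 and 6.09 against 4.21 and 4.04. In DA3 alone 2 (4.55%, against 6.47% of all genes) were higher, the oxysterol receptor Nr1h3 (-1.13) and Esrra (-0.84). Hoxc5 lost the call with either DA3 alone array or MBA-15 co-culture replicate 1, or an array of the other groups left out. Hoxa9 and Esrra did not keep the call with either DA3 alone array left out. Hoxd9 fell short of the threshold with any array of either group, or an array of the other groups left out. Hoxc13 lost the call with any array of either group left out. Hoxb9 did not keep the call with DA3 alone replicate 2 left out. Hoxa2 fell short of the threshold with DA3 alone replicate 2 or MBA-15 co-culture replicate 2 left out. Hoxb13 and Nr1h3 lost the call with DA3 alone replicate 1 left out.

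**Figure D3:**
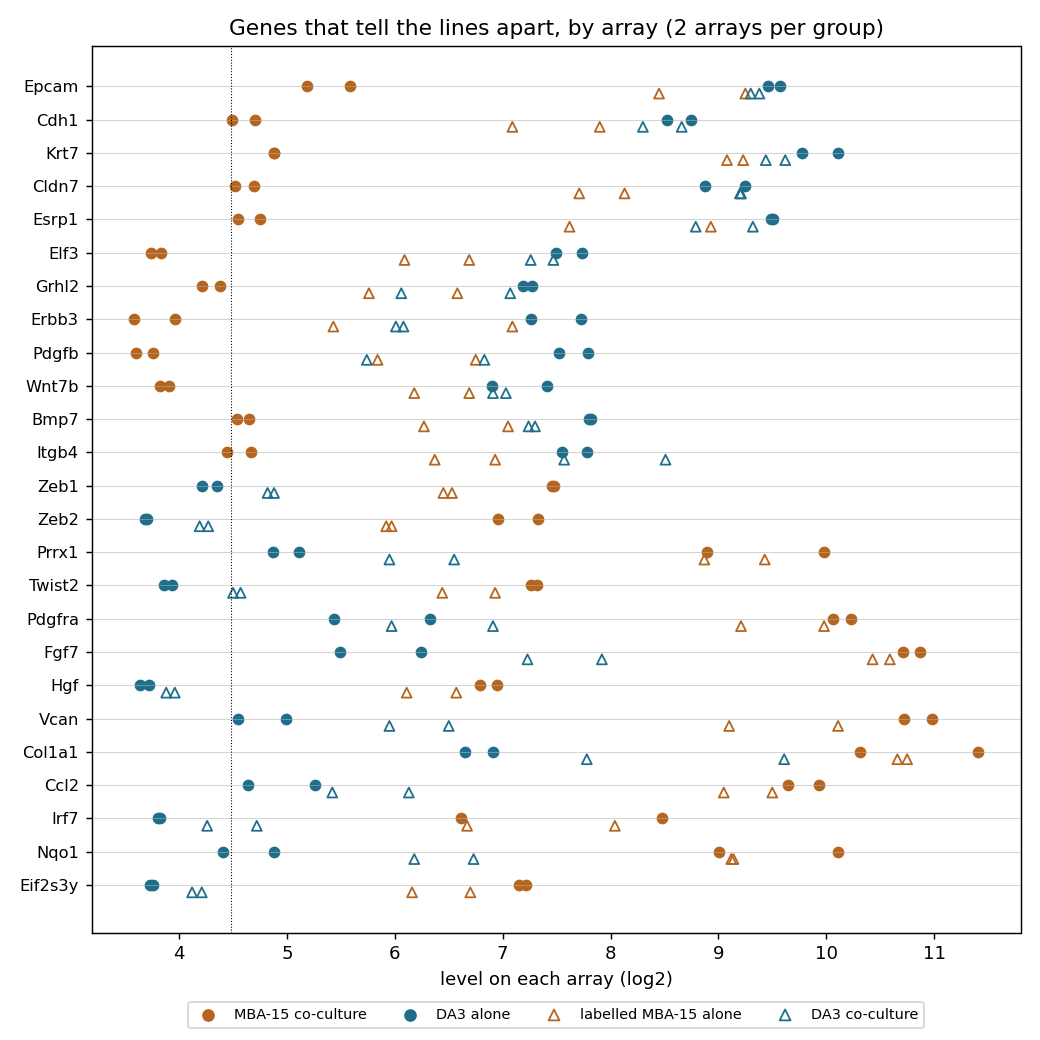
Log2 level on each array (horizontal axis) of 25 genes; filled circles are the 2 MBA-15 co-culture and 2 DA3 alone arrays, open triangles the arrays labelled MBA-15 alone and the DA3 co-culture arrays, and the dotted line is the floor of 4.479. In each of the genes the filled circles of the groups are apart, and for epithelial genes such as Epcam and Krt7 the arrays labelled MBA-15 alone lie near DA3.

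Of 45 ligands of the FGF, PDGF, VEGF, IGF, HGF and neurotrophin families 11 (24.4%, against 6.08% of all genes) were higher in MBA-15 co-culture. Another 5 (11.1%, against 6.47%) were higher in DA3 alone. Fgf7, keratinocyte growth factor, read 10.87 and 10.71 against 5.49 and 6.24 (4.92 ± 0.31, adjusted p = 0.000299). Fgf10, which acts on the same epithelial receptor, differed by 3.06, Hgf, the ligand of MET, by 3.18, Vegfd by 3.73 and Angpt1 by 3.06. Pros1, a ligand of TYRO3, differed by 4.08. In the other direction Pdgfb, which drives mesenchymal growth, read 3.60 and 3.76 in MBA-15 co-culture, with 7.79 and 7.52 in DA3 alone (-3.97 ± 0.42). Artn, a RET ligand, differed by -1.84 and Fgfbp1, a carrier that releases FGFs from matrix, by -1.94. Pdgfc was called at -1.23. Pdgfc did not keep the call with any array of either group, or an array of the other groups left out.

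Pdgfra read 10.06 and 10.23 against 5.44 and 6.33 (4.26 ± 0.43), and Pdgfrb read 8.72 and 8.14 against 4.09 and 4.26 (4.26 ± 0.31), so both PDGF receptors were high where Pdgfb was under the floor. Of 55 receptor tyrosine kinases 7 (12.7%) were higher in MBA-15 co-culture, with 8 (14.5%) in DA3 alone, against 6.08% and 6.47% of all genes. Fgfr1 (2.37), Axl (1.38), Ror2 (1.33), Epha7 (1.21) and Flt1 (1.17) completed the first set. Erbb3 read 3.58 and 3.96 against 7.26 and 7.73 (-3.72 ± 0.50), and Erbb2, its partner in signalling, 5.93 and 5.42 against 7.32 and 7.69 (-1.83 ± 0.38). The neuregulin gene Nrg1, whose product binds ERBB3, was on the stromal side, with 7.30 and 7.51 against 3.98 and 4.14 (3.35 ± 0.19). Ereg, epiregulin, was there too at 8.01 and 9.12 against 3.65 and 3.59 (4.94 ± 0.40). Tgfa, a ligand of the EGF receptor, was on the DA3 side (-2.33). Egfr itself read 6.10 and 6.59 against 5.74 and 5.78 (adjusted p = 0.198), and Met read 7.90 and 8.55 against 8.62 and 8.61 (adjusted p = 0.56). Fgfr2, the receptor gene for Fgf7 and Fgf10, read 5.91 and 4.86 in MBA-15 co-culture and was under the floor in DA3 alone (adjusted p = 0.0613). Epha1 (-2.09), Epha4 (-1.73), Ptk7 (-1.27), Tyro3 (-1.17), Ltk (-1.06) and Ror1 were the others higher in DA3 alone. Fgfr1 and Ror2 fell short of the threshold with either DA3 alone array left out. Axl lost the call with either DA3 alone array or MBA-15 co-culture replicate 1, or an array of the other groups left out. Epha7 did not keep the call with either DA3 alone array or MBA-15 co-culture replicate 1 left out. Erbb2 and Ptk7 fell short of the threshold with either DA3 alone array or MBA-15 co-culture replicate 2 left out. Tgfa and Epha4 lost the call with any array of either group left out.

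Bmp7 read 4.54 and 4.65 in MBA-15 co-culture, with 7.82 and 7.80 in DA3 alone (-3.22 ± 0.24), while Bmp4 (2.34) and the BMP antagonists Grem1 (8.93 and 8.20 against 5.38 and 5.13; 3.31) and Bmper (2.59) were higher in MBA-15 co-culture. Wnt7b read 3.91 and 3.82 against 7.41 and 6.90 (-3.29 ± 0.23). Wnt7a (-2.09), Wnt10a (-1.74), the Wnt amplifier Rspo2 (-2.44) and Notum (-2.60), which inactivates Wnt proteins, were also higher in DA3 alone. In MBA-15 co-culture the secreted Dkk3 (2.37) and, at a low level, Wnt10b (0.85) were higher, and 25 of 36 genes of the Wnt list were below the floor in both groups. Of 19 TGF-beta and BMP receptors 3 (15.8%, against 6.08% of all genes) were higher in MBA-15 co-culture, with 0 in DA3 alone. Tgfbr3, betaglycan, was the largest at 3.46, and Eng and Acvr1 followed. The latent TGF-beta binding genes Ltbp1 (1.75) and Ltbp2 (1.68) and the ligand gene Tgfb2 (1.37) were on the same side. Notum and Ltbp1 did not keep the call with either DA3 alone array left out. Wnt10b fell short of the threshold with either DA3 alone array or MBA-15 co-culture replicate 1, or an array of the other groups left out. Acvr1 lost the call with any array of either group, or an array of the other groups left out. Ltbp2 did not keep the call with either DA3 alone array or MBA-15 co-culture replicate 1 left out. Tgfb2 fell short of the threshold with either DA3 alone array or MBA-15 co-culture replicate 2 left out.

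Of 55 chemokines and cytokines measured 10 (18.2%) were higher in MBA-15 co-culture, with 7 (12.7%) in DA3 alone, against 6.08% and 6.47% of all genes. Ccl2, the monocyte attractant, read 9.65 and 9.93 against 4.64 and 5.26 (4.84 ± 0.32, adjusted p = 0.00033), and Ccl7 (4.47) and Ccl8 (4.27) of the same family were also called; these are neighbouring genes of related sequence. Il6 read 6.41 and 6.72 against 3.56 and 3.57 (3.0 ± 0.21). Cxcl10, an interferon-induced chemokine, read 8.29 and 6.56 against 4.36 and 4.08, so that the MBA-15 arrays themselves were 1.73 apart. In DA3 alone Il23a read 7.95 and 8.04 against 4.44 and 4.35 (-3.60 ± 0.17). Cxcl16 (-3.17), Tslp (-3.11), Ccl20 (-2.68), Lif (-2.30) and Il24 (-2.07) followed, of which Tslp and Ccl20 are typical of epithelium. The receptor genes Il6st (2.61), Osmr (2.51) and Lifr (1.36), of the IL-6 family, were higher in MBA-15 co-culture, and Il17re (-2.55), Ifnlr1 (-2.12) and Il22ra1 (-0.57), receptors of cytokines that act on epithelium, were higher in DA3 alone. Of 50 cytokine receptors 6 (12.0%) were called on each side. Cxcl10 lost the call with either DA3 alone array or MBA-15 co-culture replicate 1 left out. Il24 did not keep the call with DA3 alone replicate 1 or either MBA-15 co-culture array, or an array of the other groups left out. Osmr fell short of the threshold with DA3 alone replicate 1 left out. Ifnlr1 lost the call with any array of either group left out. Il22ra1 did not keep the call with any array of either group, or an array of the other groups left out.

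Guidance genes were called more often than any other signalling list of the ligand class, with 9 of 56 higher in MBA-15 co-culture, with 12 in DA3 alone (37.5% called, against 12.6% of all genes). Slit2, a secreted repellent read by ROBO receptors, read 9.15 and 9.43 against 4.07 and 4.21 (5.15 ± 0.33). Plxna2 (3.46), Nrp2 (2.96), Sema3a (2.91) and Sema5a (2.65) were on the same side. Sema3e (-2.92), Sema4d (-2.72), Sema3f (-2.53), and the ephrins Efna1 (-2.12), Efnb1 (-1.88) and Efna3 (-1.76) were higher in DA3 alone. Their receptors were mixed, with Epha7 on the MBA-15 side and Epha1 and Epha4 on the DA3 side. Sema3a, Sema5a and Efnb1 fell short of the threshold with DA3 alone replicate 1 left out. Sema3e and Efna1 lost the call with either DA3 alone array left out. Sema4d did not keep the call with DA3 alone replicate 2 left out. Efna3 and Epha4 fell short of the threshold with any array of either group left out. Epha7 lost the call with either DA3 alone array or MBA-15 co-culture replicate 1 left out.

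**Figure D4:**
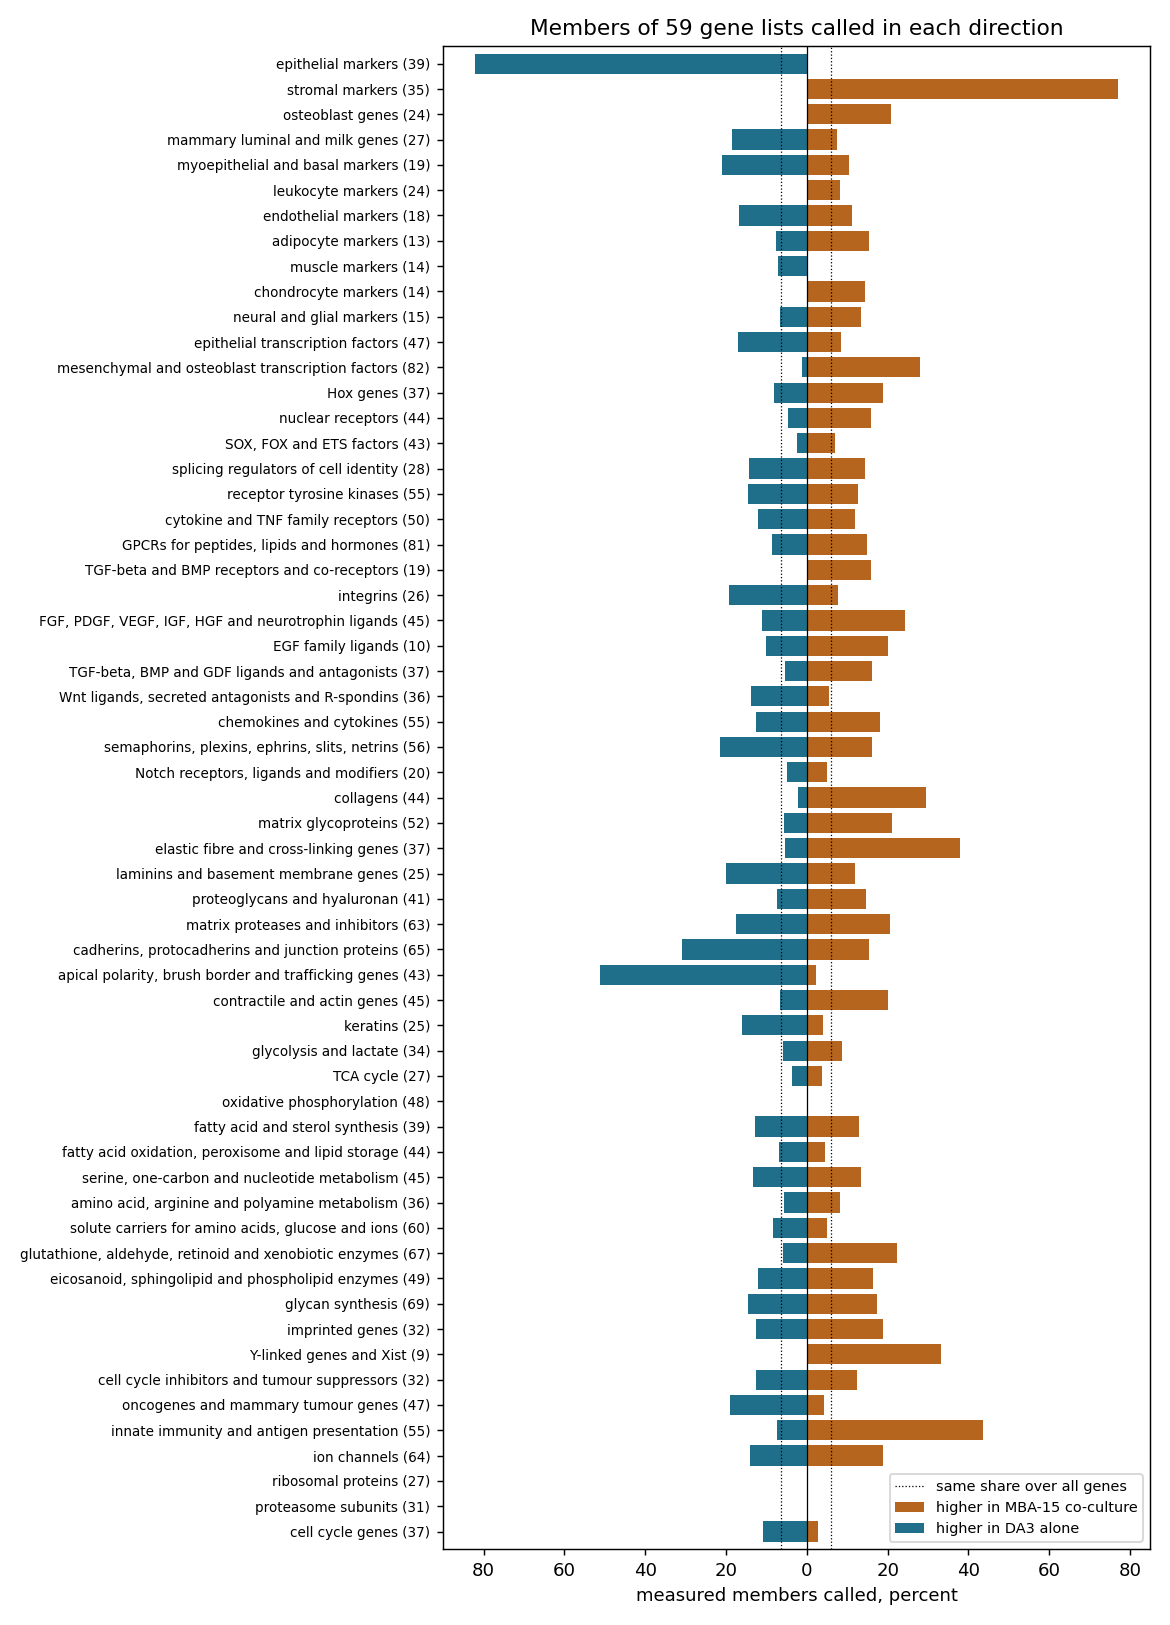
Percent of the measured members of 59 gene lists called higher in MBA-15 co-culture (right) or in DA3 alone (left), with the number measured in brackets; dotted lines mark the shares over all genes, 6.08% and 6.47%. Epithelial markers and apical genes reach farthest left, stromal markers, innate immunity and elastic fibre genes farthest right, and oxidative phosphorylation, ribosomal proteins and the proteasome have no bar.

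The matrix belonged mostly to MBA-15 co-culture. Vcan, the large proteoglycan versican, had the largest difference of all genes, with 10.98 and 10.72 against 4.99 and 4.55 (6.08 ± 0.36, 67.7-fold, adjusted p = 0.00028). Of 44 collagens 13 (29.5%) were higher in MBA-15 co-culture, with 1 in DA3 alone. The fibrillar genes Col1a2 (11.29 and 10.61 against 6.30 and 6.48; 4.56), Col5a2 (4.42), Col1a1 (11.41 and 10.31 against 6.65 and 6.91; 4.08) and Col3a1 (3.56) were called, as were Col6a3 (4.05), Col6a1 (2.75), and the basement membrane genes Col4a1 (2.73) and Col4a2 (2.16). Col18a1, the collagen of epithelial and vascular basement membranes that yields endostatin, was the exception (-1.51). Of 37 genes of elastic fibres and cross-linking 14 (37.8%) were higher in MBA-15 co-culture, with 2 in DA3 alone, with a median of 0.57. The cross-linking enzymes Lox (10.28 and 9.39 against 5.56 and 5.83; 4.14), Loxl1 (3.07) and Loxl3 (2.32) and the prolyl hydroxylase P4ha1 (2.09) were among them. Col1a1 did not keep the call with DA3 alone replicate 1 left out. Col4a2 fell short of the threshold with either DA3 alone array left out.

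Of 52 matrix glycoproteins 11 (21.2%) were higher in MBA-15 co-culture, with 3 (5.77%) in DA3 alone, against 6.08% and 6.47% of all genes. Igfbp7 read 10.62 and 10.64 against 5.86 and 6.18 (4.61 ± 0.21), and Thbs2 (4.08), Fn1, fibronectin (3.70), and Igfbp6 (3.67) followed. The 3 in the other direction were Npnt (-3.82), nephronectin, a basement membrane ligand of integrins, Ccn2 (-2.89), a matricellular protein, and Smoc1 (-1.80). Basement membrane genes were split by component. The laminin chain Lama5 read 5.89 and 5.22 against 10.06 and 10.02 (-4.49 ± 0.37) and Lamb3 differed by -2.61, whereas Nid1, nidogen, which links laminin to type IV collagen, read 9.23 and 9.49 against 4.12 and 4.51 (5.04 ± 0.49). Of 41 proteoglycan and hyaluronan genes 6 were higher in MBA-15 co-culture, with Ogn (4.17), Sdc2 (4.03) and Bgn (3.48) after Vcan, and 3 in DA3 alone, Gpc4 (-3.03), Sdc1 (-1.08) and Cd44 (-0.89). Thbs2 lost the call with DA3 alone replicate 1 left out. Fn1 did not keep the call with either DA3 alone array or MBA-15 co-culture replicate 1 left out. Sdc1 fell short of the threshold with either DA3 alone array or MBA-15 co-culture replicate 2 left out. Cd44 lost the call with any array of either group left out.

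Proteases were nearly balanced in number, 13 of 63 against 11, and differed in kind. The secreted metalloproteinases Mmp2 (8.57 and 8.54 against 4.42 and 4.77; 3.96 ± 0.16), Mmp19 (2.63) and Mmp3 (2.21), the inhibitor Timp1 (2.30), and Adam23 (2.86) and Adam19 (2.45) were higher in MBA-15 co-culture. DA3 alone was higher in membrane-anchored and secreted serine proteases. These were St14, matriptase (-4.35, with 4.59 and 4.05 against 8.89 and 8.45), Tmprss11e (-3.76), Tmprss2 (-3.48), Prss8, prostasin (-2.87), and Prss22 (-2.87). Ctsh (-3.73), a lysosomal cysteine protease, was also higher in DA3 alone. Of 45 contractile and actin genes 9 were higher in MBA-15 co-culture, Acta2, smooth muscle actin, at 4.14 (9.94 and 10.11 against 5.78 and 5.98), Cavin1 (3.03) and Cald1 (1.53) among them. Myh14, a nonmuscle myosin (-3.07), and Tpm2 (-1.26) were higher in DA3 alone. Mmp3 did not keep the call with either DA3 alone array or MBA-15 co-culture replicate 2, or an array of the other groups left out. Timp1 and Adam23 fell short of the threshold with either DA3 alone array or MBA-15 co-culture replicate 2 left out. Adam19 lost the call with DA3 alone replicate 1 left out. Prss8 did not keep the call with DA3 alone replicate 2 left out. Cald1 fell short of the threshold with any array of either group left out.

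Oxidative phosphorylation and the TCA cycle held few calls. Of 48 oxidative phosphorylation genes 0 were called by limma (1 at an unadjusted p under 0.05; median 0.11), of 27 genes of the TCA cycle 2 (Idh1 1.34 and Ogdh -1.01), and of 34 genes of glycolysis and lactate 5. These are 0%, 7.41% and 14.7% of the lists, against 12.6% of all genes. Slc16a3, the lactate exporter MCT4 (2.73), Pdk4, a kinase that holds back pyruvate oxidation (2.79), and Ldhb (1.14) were higher in MBA-15 co-culture. Pfkfb3 (-2.05) and Pfkfb2 (-1.07), which make the activator of phosphofructokinase, were higher in DA3 alone. Of 27 ribosomal protein genes and 31 proteasome genes 0 were called by limma, with 6 and 2 at an unadjusted p under 0.05. Actb read 12.62 and 12.70 against 12.39 and 12.31 (adjusted p = 0.192). Idh1 lost the call with any array of either group, or an array of the other groups left out. Ogdh and Pfkfb2 did not keep the call with any array of either group left out. Pdk4 fell short of the threshold with DA3 alone replicate 1 left out. Ldhb lost the call with either DA3 alone array or MBA-15 co-culture replicate 1 left out.

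Enzymes of detoxification and of small-molecule handling differed more. Of 67 genes of glutathione, aldehyde, retinoid and xenobiotic metabolism 15 (22.4%) were higher in MBA-15 co-culture, with 4 in DA3 alone, with a median of 0.43. Nqo1, a quinone reductase and textbook target of NRF2, read 9.01 and 10.11 against 4.41 and 4.88 (4.91 ± 0.38, adjusted p = 0.000567). Gsta3 (3.63), Gstm1 (3.38), Cbr3 (2.33) and Gsto1 (2.32) were on that side. Gclm (1.47, adjusted p = 0.0597) did not pass. Glutathione transferases are families of near copies whose probe sets may share signal. Stra6, the receptor that takes up retinol, read 4.09 and 4.27 against 7.71 and 8.17 (-3.76 ± 0.28), and Rdh10, which makes retinal, differed by -2.84. Stra6 was not high in both DA3 groups, since it read 4.10 and 4.50 on the DA3 co-culture arrays. Gsta3 did not keep the call with either DA3 alone array or MBA-15 co-culture replicate 2 left out. Rdh10 fell short of the threshold with DA3 alone replicate 2 left out.

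Amino acid and nucleotide genes held a few large differences. Bcat1, which starts the breakdown of branched-chain amino acids, read 8.47 and 8.37 against 4.30 and 4.40 (4.07 ± 0.24). Cth (3.45), which makes cysteine, the mitochondrial folate enzyme gene Aldh1l2 (3.0), and Nt5e, CD73, which makes extracellular adenosine (3.08), were higher in MBA-15 co-culture. Ada, which removes adenosine, read 4.61 and 4.26 against 7.13 and 7.20 (-2.73 ± 0.22), so the maker and the remover of adenosine lay on opposite sides. Arg1 (-2.25) and Gpt2 (-1.67) were higher in DA3 alone. In lipid metabolism Acox2, a peroxisomal oxidase of branched chains and bile acid precursors, read 3.89 and 3.79 against 7.98 and 8.73 (-4.52 ± 0.47). The ceramide synthases were divided, Cers6 at 3.63 and Cers3, of very long chains, at -3.47, and so were the elongases Elovl4 (2.14) and Elovl7 (-2.85). Ptges (3.52) and Ptgs2 (11.11 and 11.38 against 9.56 and 8.40; 2.27), which act in sequence to make prostaglandin E, were higher in MBA-15 co-culture. Bst1, an ADP-ribosyl cyclase on the cell surface, was the second largest difference toward DA3 (4.51 and 3.92 against 9.43 and 9.22; -5.11 ± 0.31). Arg1 lost the call with either DA3 alone array or MBA-15 co-culture replicate 2 left out. Gpt2 and Cers3 did not keep the call with either DA3 alone array left out.

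Outside the stromal markers, innate immune genes had the largest share of members higher in MBA-15 co-culture, 24 of 55 (43.6%), with a median of 0.88. Another 4 (7.27%) were higher in DA3 alone, and over all genes the shares were 6.08% and 6.47%. Ifit1, an interferon-induced RNA sensor, read 8.62 and 8.12 against 4.21 and 4.32 (4.11 ± 0.30), and Casp1, the inflammasome protease, 8.44 and 9.12 against 4.57 and 4.64 (4.17 ± 0.27). Irf7, the regulator of interferon genes, read 8.48 and 6.61 against 3.82 and 3.80 (3.73 ± 0.66), with the MBA-15 arrays 1.86 apart. Trim30a (5.03), Oas1a (3.64) and Ifit3 (3.50) followed. Trim30a, the IFIT genes and the OAS genes belong to clustered families of similar sequence. In the other direction Tlr3, a sensor of double-stranded RNA (-2.27), and Hp (-0.59) joined Ltf and Lcn2. Irf7 and Ifit3 fell short of the threshold with either DA3 alone array left out. Oas1a lost the call with DA3 alone replicate 2 left out. Hp did not keep the call with any array of either group, or an array of the other groups left out. Lcn2 fell short of the threshold with either DA3 alone array or MBA-15 co-culture replicate 1 left out.

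Tumour genes were called mostly toward DA3. Of 47 oncogenes and mammary tumour genes 9 (19.1%, against 6.47% of all genes) were higher in DA3 alone and 2 (4.26%, against 6.08%) in MBA-15 co-culture, with a median of -0.22. Among them were the RAS pathway feedback gene Spry1 (-3.60), the mRNA-binding Igf2bp1 (-2.47), Ccnd2 (-1.79) and Etv4 (-1.49), while Hmga2, a chromatin protein of fetal and mesenchymal cells, was higher in MBA-15 co-culture (2.44). Cdkn2a, which encodes p16 and ARF, read 4.72 and 5.03 against 6.98 and 7.59 (-2.41 ± 0.33), and its neighbour Cdkn2b differed by -2.40. Mtap, in the same chromosomal neighbourhood, was higher in MBA-15 co-culture at 1.33 and above the floor in both lines. Nf1 (2.92) and Nf2 (-3.12), both named for neurofibromatosis, were called in opposite directions. Of 37 cell cycle genes 4 were higher in DA3 alone, Aurka (-1.69), Kif23 (-1.39), Ube2c (-1.16) and Tpx2 (-0.93), and Pola1 (1.17) was higher in MBA-15 co-culture. These calls were 13.5% of the list, near the 12.6% of all genes. The median of that list was -0.36. Spry1, Hmga2 and Mtap lost the call with DA3 alone replicate 2 left out. Ccnd2 did not keep the call with either DA3 alone array left out. Etv4, Nf1 and Nf2 fell short of the threshold with either DA3 alone array or MBA-15 co-culture replicate 2 left out. Kif23 lost the call with DA3 alone replicate 1 left out. Tpx2 did not keep the call with any array of either group left out.

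Eif2s3y, a Y-linked gene, read 7.22 and 7.15 in MBA-15 co-culture, with 3.73 and 3.76 in DA3 alone (3.44 ± 0.19), and Uty (3.05) and Kdm5d (2.34) were called likewise. DA3 was under the floor in all 3. Xist, which silences the second X chromosome, was under the floor in both lines, at 3.46 and 3.50 against 3.52 and 3.62. Both Usp9y (-0.13) and Sry (0.09) were not called.

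The other 4 arrays of the study allow the same line comparison with the conditions reversed, the arrays labelled MBA-15 alone against DA3 co-culture, and share no array with the 4 above. They are less clean: the arrays labelled MBA-15 alone read 8.45 and 9.25 for Epcam, and the mean epithelial level there was 6.66 and 7.05. Of the 2503 called genes 2004 (80.1%) had the same sign in those arrays, against 55.9% of all genes. The agreement was uneven. Of the 1213 genes higher in MBA-15 co-culture 1177 kept their sign, with a median difference of 1.07, whereas of the 1290 genes higher in DA3 alone 827 did, with a median of -0.16. Among genes over 2 apart, 433 of 437 kept the sign on the MBA-15 side (median 2.81 here and 1.88 there) and 238 of 346 on the DA3 side (-2.65 and -0.38). Vcan (3.38), Slit2 (2.98), Fgf7 (2.94), Prrx1 (2.90) and Eif2s3y (2.26) were still far apart there. On the DA3 side Itgb4 (-1.39), Krt18 (-1.07) and Krt8 (-1.15) kept a difference, whereas Krt7 (-0.38), Epcam (-0.49) and Mpzl2 (0.02) kept little. Prl2c5, a proliferin gene with close copies, was 5.19 apart here and 1.08 there, and its level on the DA3 co-culture arrays was 8.74 and 9.78 against 6.03 and 5.98 in DA3 alone. In all, 662 of the 2503 genes were also called with the same sign among the other 4 arrays, where 1086 genes were called, and 499 had the opposite sign.

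**Figure D5:**
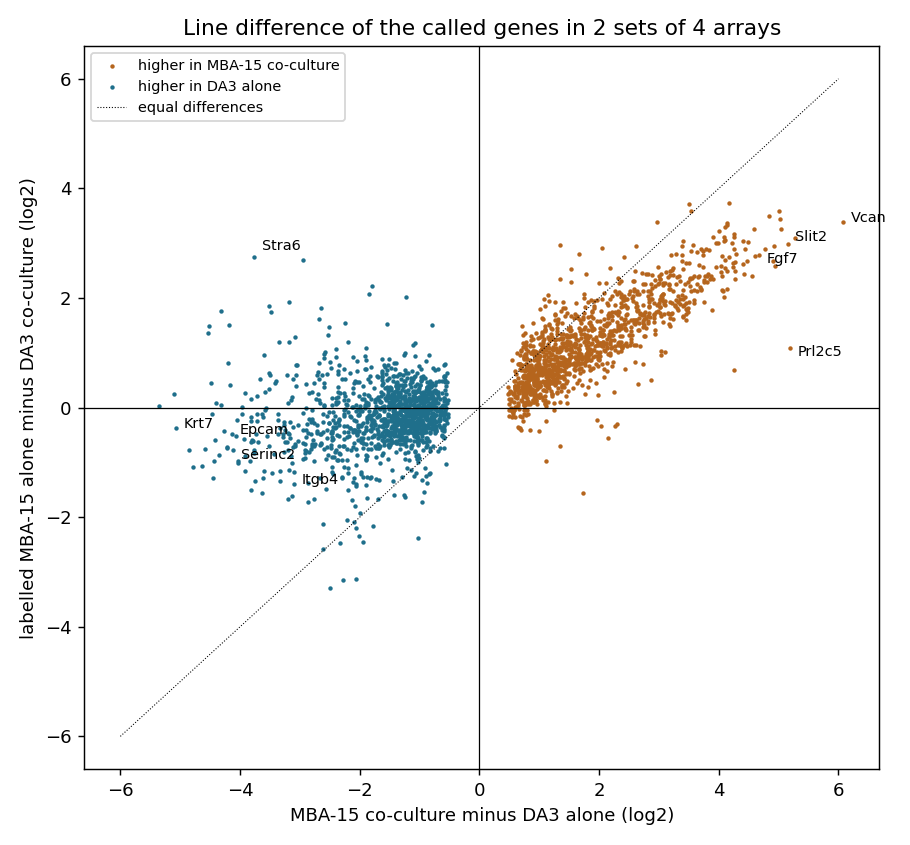
Difference between the lines (log2) of the 2503 called genes in MBA-15 co-culture against DA3 alone (horizontal axis) and in the arrays labelled MBA-15 alone against DA3 co-culture (vertical axis); the dotted line marks equal differences. Genes higher in MBA-15 co-culture lie mostly above 0 on the vertical axis, while genes higher in DA3 alone are spread about 0, with Stra6 at 2.75.

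Small RNA genes were near the limit of these arrays, which read the hairpin precursors and not the mature forms. The hairpins named here were chosen after their values were seen. Of 272 hairpins 181 were below the floor in both groups, 6 (2.21%) were higher in MBA-15 co-culture, with 0 in DA3 alone by limma. Over all genes these shares were 6.08% and 6.47%. The mature sequences of 4 of them are shown, from RefSeq in GRCm38.p6, since Mir218-1 lies inside Slit2 and a pair shares its seed; capitals mark the seed, bases 2 to 8.
miR-218-5p, chr5:48223966-48223986: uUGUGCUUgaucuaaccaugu
miR-7a-5p, chr13:58392841-58392863: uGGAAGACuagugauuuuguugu
miR-15b-5p, chr3:69009775-69009796: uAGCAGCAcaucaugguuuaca
miR-16-5p, chr3:69009918-69009939: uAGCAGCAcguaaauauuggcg

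Mir218-1 read 4.45 and 4.47 in MBA-15 co-culture, at the floor, against 3.53 and 3.44 (0.97 ± 0.11), where its host gene Slit2 was 5.15 apart. Mir15b (0.92) and Mir16-2 (1.03), whose 5′ mature forms share the seed AGCAGCA, lie inside Smc4, which was 0.07 apart. Mir7-1 (1.47) lies inside Hnrnpk (-0.23). The hairpins of the miR-200 family, which is known to repress Zeb1 and Zeb2 in epithelia, were under the floor in both groups, with differences of -0.19 in Mir200a, -0.14 in Mir200b, -0.09 in Mir200c and -0.08 in Mir141.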

How the data were processed

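RNA of 8 samples was read on Affymetrix Mouse Gene 1.0 ST arrays, 2 for each of 4 groups. The deposited values were summarised by RMA in Partek 6.5, per the submitters' processing notes, and their log2 scale was read from their range (2.28 to 13.4), since the authors' table states no scale. Of 35556 probe sets, 21789 carried 1 gene symbol in the platform annotation, 1621 several and 12146 none, and only the first kind was named. A gene with several probe sets (999 genes) took the one with the highest mean, which left 19938 genes. Groups came from the sample titles. All 8 arrays were fitted with a mean per group in limma 3.58.1 (R 4.3.3), with empirical Bayes moderation and Benjamini-Hochberg adjustment over all genes. The other groups entered only to estimate the spread. On simulated arrays with known changes in 50 genes per size, the test recovered 22 at a log2 change of 1, 41 at 2, 46 at 3 and 48 at 4, with 5 false calls. How many of the 2503 calls on the deposited arrays are false was not tested. Genes named are the extremes of all genes and up to 6 called members of each list in each direction, with Hox, nuclear receptor, keratin, Y-linked and receptor tyrosine kinase genes open to naming. The gene lists and the comparison were chosen with earlier results of these data known. Promoters and mature miRNAs are those of RefSeq, and some listed genes are not analysed here. Normalization, filters, blocks and left-out arrays were tried as alternatives.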

Additional observations from a re-analysis of the deposited data

How the results depend on the processing

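With 2 arrays a group, leaving out an array leaves an arm with 1 sample that is assumed to vary like the other groups. The count of genes higher in MBA-15 co-culture (1213) then ranged from 544 to 1326 and that of genes higher in DA3 alone (1290) from 451 to 1544, lowest without DA3 alone replicate 1. A required change over 1 left 347 and 243. The groups share replicate numbers, which coincide there with an assay number in the labels (4 for replicate 1, 3 for replicate 2) whose meaning is not stated. Deviations of samples with the same number correlated at 0.213 over 2 pairs. With the assay number as a block the fit called 1414 and 1597 genes. The fit with a replicate block on 8 arrays called 1198 and 1242 genes, of which 2233 were among the 2503, and the replicate block on the 4 arrays alone called 2012 genes higher in DA3 alone and 1566 higher in MBA-15 co-culture. The share of called genes with the same sign in the other 4 arrays (80.1%) was 84.2% within replicate number 1 and 70.9% within number 2. Of 404 called genes chosen for naming, 201 stayed called under all 22 settings and 236 under all but the required change. Averaged over culture conditions, Il10rb (0.06), Pdgfc (0.39) and Pla1a (0.35) reversed from -0.84, -1.23 and -0.80; the cause was not tested. The values come without detection calls, which limits what can be said of genes under the floor.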

Other observations

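Ion channels, glycan enzymes and imprinted genes also held differences between these lines. Of 64 ion channel genes 12 were higher in MBA-15 co-culture, with 9 in DA3 alone, against 6.08% and 6.47% of all genes. Aqp1, a water channel, differed by 3.82, Kcnj2, an inward rectifier, by 2.77, and Piezo1, which opens on stretch, by 2.21. In DA3 alone Trpv4 (-3.56), Ano1, a calcium-activated chloride channel (-3.27), and Kcnk1 (-3.20) were higher. Of 69 glycan synthesis genes 12 were higher in MBA-15 co-culture, led by Chst15 (2.45) and Chst11 (2.31), which sulfate chondroitin, and by Hpse, heparanase (2.45). The 10 higher in DA3 alone included B3gnt3 (-3.76), St6galnac2 (-3.36) and Galnt3 (-3.19), which build and cap O-glycans. Piezo1 lost the call with either DA3 alone array or MBA-15 co-culture replicate 1 left out, and Chst11 with DA3 alone replicate 1 left out.

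Of 32 imprinted genes 6 were higher in MBA-15 co-culture, with Grb10 (3.76), Ndn (3.04) and Sgce (2.15) the farthest apart, and 4 in DA3 alone, with Phlda2 (-2.47) and Igf2r (-2.36). Igf2r lost the call with any array of either group left out, and Phlda2 with DA3 alone replicate 1 or either MBA-15 co-culture array left out. Neighbouring genes called in 1 direction formed 10 runs of 4 or more, 6 higher in MBA-15 co-culture, with 4 in DA3 alone. The runs named here were chosen after their values were seen, and left-out arrays were not tried on most of their genes. One run held Slfn9, Slfn8, Slfn10-ps and Slfn2 (1.37 to 3.39) and another Ifi207, Ifi203, Ifi202b and Ifi205 (1.25 to 2.98), families of similar sequence whose probe sets may share signal. The run of Casp1, Casp4, Casp12 and Pdgfd spanned 1.40 to 4.17.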
